A study of Mus musculus with 29 samples.

Results

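Livers of 8 mice given omega-3 phospholipids together with rosiglitazone were compared with livers of 7 mice on the high-fat diet alone, which makes 15 of the 29 samples of the study. The members were chosen by their titles, and no measured value entered that choice. All animals were male C57BL/6N wild-type mice, 3 months old and on chow before the diets began, and each array holds 1 individual liver RNA. Both groups ate a corn oil-based high-fat diet (cHF) for 7 weeks. In the combined group (cHF+PC+R), about 7% of the dietary lipid was replaced by phospholipids carrying the omega-3 fatty acids EPA and DHA, in large part phosphatidylcholine (PC), and the diet also held a low dose of rosiglitazone (R). The remaining livers, from 8 mice on cHF+PC and 6 on cHF+R, are used here only to set the combination beside each supplement alone. No lean group is among the samples, so every change is relative to livers of mice fed the same high-fat diet.

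EPA and DHA are long-chain polyunsaturated fatty acids that bind the nuclear receptor PPAR-alpha, which drives genes of fatty acid oxidation in hepatocytes. They also lower the activity of the SREBP transcription factors, which drive genes of cholesterol and fatty acid synthesis. Rosiglitazone is an agonist of PPAR-gamma, the receptor that governs lipid storage genes in adipocytes and is much less abundant in healthy liver.

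Each value below is the log2 ratio of a liver, labelled with Cy5, to a Cy3 reference pooled from all samples, and a change is the difference between the 2 group means with its standard error. A gene is said to have risen or fallen only if its adjusted p, from limma with Benjamini-Hochberg adjustment over all 19465 genes tested, was under 0.05. Where 3 values are given for a group they are the lowest, the median and the highest of its livers. Over all 39429 probes, dim ones included, the median correlation between arrays was 0.439 within cHF and 0.313 within cHF+PC+R. Between the groups it was 0.119, with a lowest pair at -0.02. The array of cHF replicate 4 stood apart, with 80.8% of spots well above background in Cy5 against 55.0% to 62.5% on the others. Liver tissue was profiled whole, so fewer cells of a type and less RNA per cell cannot be told apart.

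Of the 19465 genes, 1850 passed the threshold, which is 9.50% of those tested, with 923 that rose (4.74%) and 927 that fell (4.76%). The counts against cHF for sets of genes below are to be set beside these shares. The median change over all genes was 0.01. Large changes were few: 99 of the rising and 113 of the falling genes moved at least 1.5-fold, and 30 and 39 moved at least 2-fold. For 479 genes (2.46%), every cHF+PC+R liver with a value lay on one side of every cHF liver with a value. Of these genes, 222 were higher (1.14%) and 257 lower (1.32%), and some had values on fewer than the 15 livers. Without cHF replicate 4 there were 1708 genes past the threshold. The count dropped to 82 with each array centred on its median in place of a loess curve, to 767 with Cy5 alone, and to 144 with loess followed by scaling between arrays. Of the 102 genes named in the text that passed, 75, 12 and 87 lost the call under these settings, 27 did so with scaling over the kept probes and 0 to 2 under each of the other alternatives tried. The 14 that kept it under all 15 alternatives were Acot2, Cyp2c55, Cyp4a10, Cyp4a14, Cyp4a31, Cyp4a32, Dntt, Ehhadh, Gprc5b, Grin3b, H2-Q1, Lpl, Pklr and Slc17a8. Among them, Cyp4a14 had values on few cHF arrays, as given below. In the authors' deposited value table, 30.5% of the 2020 genes past the threshold were higher, against 49.9% here.

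**Figure D1:**
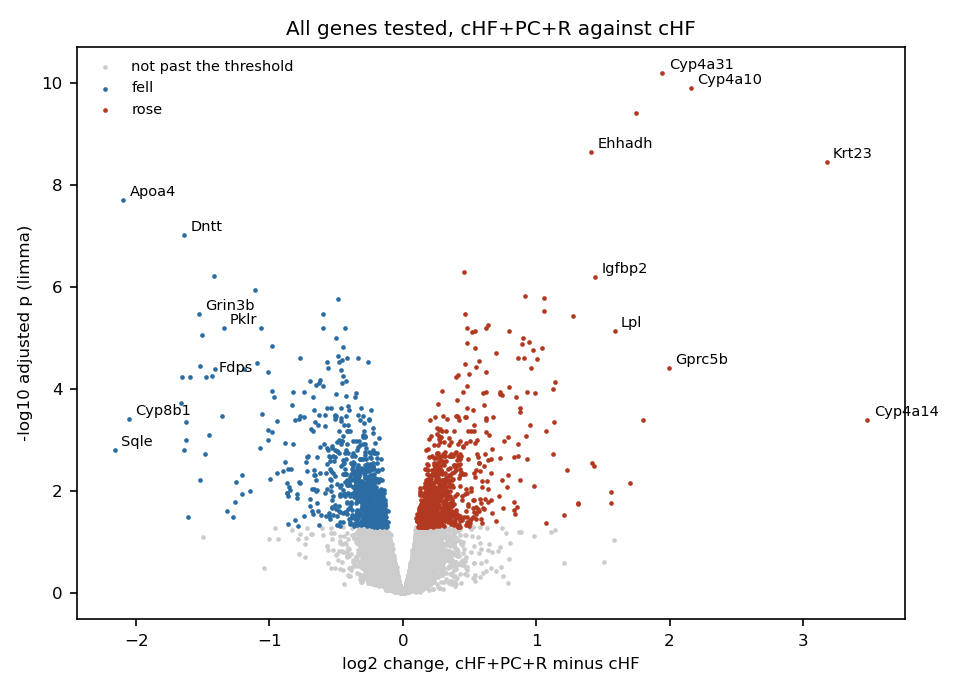
Change between cHF+PC+R and cHF livers on the log2 scale (x axis) against -log10 of the adjusted p (y axis) for 19465 genes, 1 point each. The 923 genes that rose and the 927 that fell are coloured, and Krt23, Cyp4a10 and Cyp4a31 stand high on the right while Apoa4 and Dntt stand high on the left.

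Among genes with values on at least 5 arrays of each group, the largest rise was that of Krt23, which encodes a type I keratin. Its log2 ratio stood at -3.45, -2.95 and -2.39 in cHF and at -0.89, 0.44 and 1.00 in cHF+PC+R. All 8 cHF+PC+R livers lay above all 7 cHF livers. Krt23 rose by 3.18 ± 0.26 (adjusted p = 3.49e-09), a 9.04-fold difference, and the change within the 7 slides that carried both groups ran from 2.36 to 3.88. The probe lies at chr11:99339393-99339452 of mouse build mm9. Igfbp2, a secreted protein that binds insulin-like growth factors, stood at -1.38, -0.94 and -0.09 in cHF and at -0.15, 0.52 and 0.95 in cHF+PC+R. Those groups overlapped through cHF replicate 1, which at -0.09 stood above the lowest cHF+PC+R liver, and Igfbp2 rose by 1.44 ± 0.15 (adjusted p = 6.41e-07). Gprc5b, an orphan receptor coupled to G proteins, rose by 2.00 ± 0.29 (adjusted p = 3.82e-05) with separate groups and 1.20 at its other probe, and Serpinb1a, an inhibitor of neutrophil proteases, rose by 1.80 ± 0.31 (adjusted p = 0.000406) with overlapping ones.

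The largest falls outside sterol synthesis were those of Apoa4 and Cyp8b1. Apoa4, an apolipoprotein of lymph and plasma that hepatocytes make when fat accumulates, stood at 0.28, 0.71 and 1.24 in cHF and at -1.58, -1.41 and -0.82 in cHF+PC+R. The highest cHF+PC+R liver thus lay below the lowest cHF liver. Apoa4 fell by 2.09 ± 0.19 (adjusted p = 1.99e-08), and it was lower in all 7 slides. Dntt, best known as the DNA polymerase that adds bases at antigen receptor junctions in lymphocytes, stood at 0.39, 0.84 and 1.03 in cHF and at -1.25, -0.91 and -0.38 in cHF+PC+R, and it fell by 1.64 ± 0.16 (adjusted p = 9.51e-08). Grin3b, a glutamate receptor subunit, fell by 1.53 ± 0.18 (adjusted p = 3.39e-06), and Tlr12, a Toll-like receptor, fell by 1.51 ± 0.19 (adjusted p = 8.51e-06), both with separate groups. Aqp8, a channel for water in the bile canaliculus, fell by 1.63 ± 0.29 (adjusted p = 0.000447), and Slc17a8, a vesicular glutamate transporter, fell by 1.66 ± 0.27 (adjusted p = 0.000186), again with separate groups, although the other probe of Slc17a8 changed by only -0.32.

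Cholesterol is built from acetyl-CoA through mevalonate, farnesyl pyrophosphate and squalene, and SREBP-2 drives most of the genes by binding sterol regulatory elements beside CCAAT boxes, which bind the factor NF-Y. Of 19 measured enzymes of this pathway 18 fell, with a median change of -0.84, against the 4.76% of all genes that fell. Promoter stretches of 5 of these enzymes are shown because they carry the CCAAT box, the only one of 3 motifs searched that most members of the pathway shared. Each runs 5′ to 3′ over the 90 bases before the start, from RefSeq on GRCm38.p6, and capitals mark CCAAT or, on the other strand, ATTGG.
Idi1, chr13:8885516-8885605, plus strand: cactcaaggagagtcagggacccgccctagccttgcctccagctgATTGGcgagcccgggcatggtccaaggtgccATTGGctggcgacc
Mvd, chr8:122443423-122443512, minus strand: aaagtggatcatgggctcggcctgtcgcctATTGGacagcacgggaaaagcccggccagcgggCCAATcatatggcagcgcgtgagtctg
Mvk, chr5:114444179-114444268, plus strand: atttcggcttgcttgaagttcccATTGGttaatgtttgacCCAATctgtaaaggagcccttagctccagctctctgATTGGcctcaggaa
Msmo1, chr8:64733579-64733668, minus strand: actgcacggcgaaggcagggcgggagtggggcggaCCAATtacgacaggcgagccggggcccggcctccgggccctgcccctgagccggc
Cyp51, chr5:4104698-4104787, minus strand: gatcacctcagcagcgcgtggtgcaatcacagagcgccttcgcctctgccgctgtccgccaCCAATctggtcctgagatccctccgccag
The searched windows ran from 250 bases before to 50 after the start and were at hand for 15 of the pathway's genes. No window was at hand for Sqle or Fdps, so their promoters were not searched. CCAAT was present on either strand in 13 of those 15 (86.7%) and in 37.9% of 27025 genes. It was also in 7 of 9 windows of sterol sensing and uptake genes (77.8%), a list in which 0 genes fell. For fatty acid synthesis it was in 10 of 16 windows (62.5%), and for bile acid synthesis and transport in 5 of 15 (33.3%). The sterol regulatory element, searched as TCACNCCAC on both strands, was present in 1 of the 15 windows of this pathway (6.67%) and in 1.22% of all. It was in 1 of 15 windows of peroxisomal genes (6.67%) and 1 of 16 of fatty acid synthesis (6.25%). For cytochromes P450 that handle drugs and steroids it was in 3 of 23 (13%), but the closely related Cyp2a4 and Cyp2a5 held the same match at nearly the same place. Among all genes tested, CCAAT was found in 42% of windows of genes that fell, in 39.3% of those that rose and in 38.2% overall. A match is a run of letters, and these windows were not tested for binding.

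Among the enzymes up to farnesyl pyrophosphate, the mevalonate kinases and the decarboxylase fell: Mvk by 0.84, Pmvk by 0.97 and Mvd by 1.35. Idi1, the isomerase of the resulting isoprene units, stood at 0.16, 0.55 and 1.08 in cHF and at -1.97, -1.28 and 0.20 in cHF+PC+R. It had a value in 7 of the 8 cHF+PC+R livers, of which replicate 3 overlapped with cHF, and fell by 1.63 ± 0.30 (adjusted p = 0.00101). Fdps, which joins the units into farnesyl pyrophosphate, stood at 0.08, 0.41 and 0.68 in cHF and at -1.54, -1.04 and -0.29 in cHF+PC+R, without overlap, and it fell by 1.43 ± 0.21 (adjusted p = 5.53e-05). Gm8163, described in the files as similar to Fdps, fell by 1.47, but 52 of 55 aligned letters of its probe matched that of Fdps, so the probes cannot be read as separate genes. Gm7979 carries the same kind of description, shared 21 of 57 letters with the Fdps probe and fell by 1.52. Probes were compared only with each other, so whether the Gm7979 probe binds the Fdps transcript elsewhere was not tested.

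Beyond farnesyl pyrophosphate, Sqle, which oxidises squalene, stood at 0.05, 0.54 and 1.03 in cHF and at -3.09, -1.91 and 0.03 in cHF+PC+R. The 3 highest cHF+PC+R livers were replicates 8, 3 and 6 at 0.03, -0.15 and -0.65, and the other 5 lay at -1.61 or below, yet no cHF liver was as low as replicate 8. The same 3 livers were also the highest of their group for Fdps, Msmo1, Cyp51 and Nsdhl. Sqle fell by 2.16 ± 0.43 (adjusted p = 0.00157), with changes within slides from -3.63 to -0.47. Msmo1 and Nsdhl, which remove methyl groups from lanosterol-derived sterols, fell by 1.45 and 1.01, Cyp51, the lanosterol demethylase, by 1.07, and Dhcr7, which makes cholesterol, by 0.83. Lss, the lanosterol synthase, and Hsd17b7, a sterol ketone reductase, fell by 0.64 and 0.82. Without cHF replicate 4, 16 of 19 fell, with median centring 1 of 19 fell at a median of -0.78, and with scaling between arrays 0 of 19 fell at a median of -0.68. With scaling over the kept probes 13 of 19 fell.

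Genes that sense sterols and take them up moved much less, with 2 of 14 that rose, none that fell (0) and a median of 0.04. Srebf2, which encodes SREBP-2 itself, was at -0.14 ± 0.08 (adjusted p = 0.288). Insig1, which holds SREBP in the endoplasmic reticulum, was at -0.38 ± 0.13 (adjusted p = 0.0716). Scarb1, the hepatic receptor for HDL, stood at -0.41, -0.28 and -0.07 in cHF and at -0.06, 0.23 and 0.41 in cHF+PC+R, with no overlap, and rose by 0.45 ± 0.07 (adjusted p = 0.000116). The other riser was Lrp1, an endocytic receptor, at 0.33 (adjusted p = 0.0301). The Lrp1 call was lost without cHF replicates 5, 6 or 7 or cHF+PC+R replicates 2 or 4, with an adjusted p of up to 0.0803, in a fit of the 2 groups alone (0.0645) and with Cy5 alone (0.382), and 1 member fell without cHF replicate 2 or cHF+PC+R replicates 3 or 6. Of 9 genes of sterol efflux and the LXR receptors, 4 rose. Abcg5 and Abcg8, the paired half-transporters that move sterols into bile, rose by 1.00 ± 0.14 and 0.89 ± 0.12, each with every cHF+PC+R liver above every cHF liver. Abca1, which loads cholesterol onto nascent HDL, rose by 0.35 ± 0.08 (adjusted p = 0.00627), also without overlap.

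Fatty acid synthesis fell in 9 of 18 measured genes with a median of -0.71, and none rose (0 of 18). Acly, which splits citrate into cytosolic acetyl-CoA, fell by 1.06 ± 0.18 (adjusted p = 0.000312) over the 6 cHF and 7 cHF+PC+R livers with a value, and its other probe changed by -0.30. Fasn, the fatty acid synthase, stood at -0.18, 0.48 and 0.82 in cHF and at -1.53, -0.64 and -0.36 in cHF+PC+R. The lowest cHF liver lay above the highest cHF+PC+R liver, and Fasn fell by 1.21 ± 0.27 (adjusted p = 0.00487). Elovl5 and Elovl2, which elongate polyunsaturated fatty acids, fell by 0.88 and 0.53, Elovl5 over 6 and 7 livers. Tkfc, a kinase of fructose-derived trioses, fell by 0.74. Thrsp, a lipogenic nuclear protein, stood at -0.32, 0.09 and 1.12 in cHF and at -2.79, -1.18 and 0.39 in cHF+PC+R, with wide spread in cHF+PC+R and overlap. It fell by 1.61 ± 0.48 (adjusted p = 0.0317), but the call was lost without cHF replicates 4, 5 or 6 or cHF+PC+R replicates 3, 4 or 5, with an adjusted p of up to 0.0759.

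Other steps of lipogenesis did not pass. Scd1, which desaturates stearate, was at 0.52 ± 0.45 (adjusted p = 0.508), Acaca, the cytosolic acetyl-CoA carboxylase, at -0.25 ± 0.14 (adjusted p = 0.282) and Srebf1, which encodes SREBP-1, at 0.01 ± 0.15 (adjusted p = 0.974). Of the 6 enzymes that supply NADPH, 0 passed at a median of -0.07, and that median turned above 0 with median centring. Fewer of the fatty acid synthesis genes, 6 of 18, fell without cHF replicate 4, and 0 fell with median centring (median -0.62) or with scaling between arrays (median -0.49), against 4 with scaling over the kept probes.

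**Figure D2:**
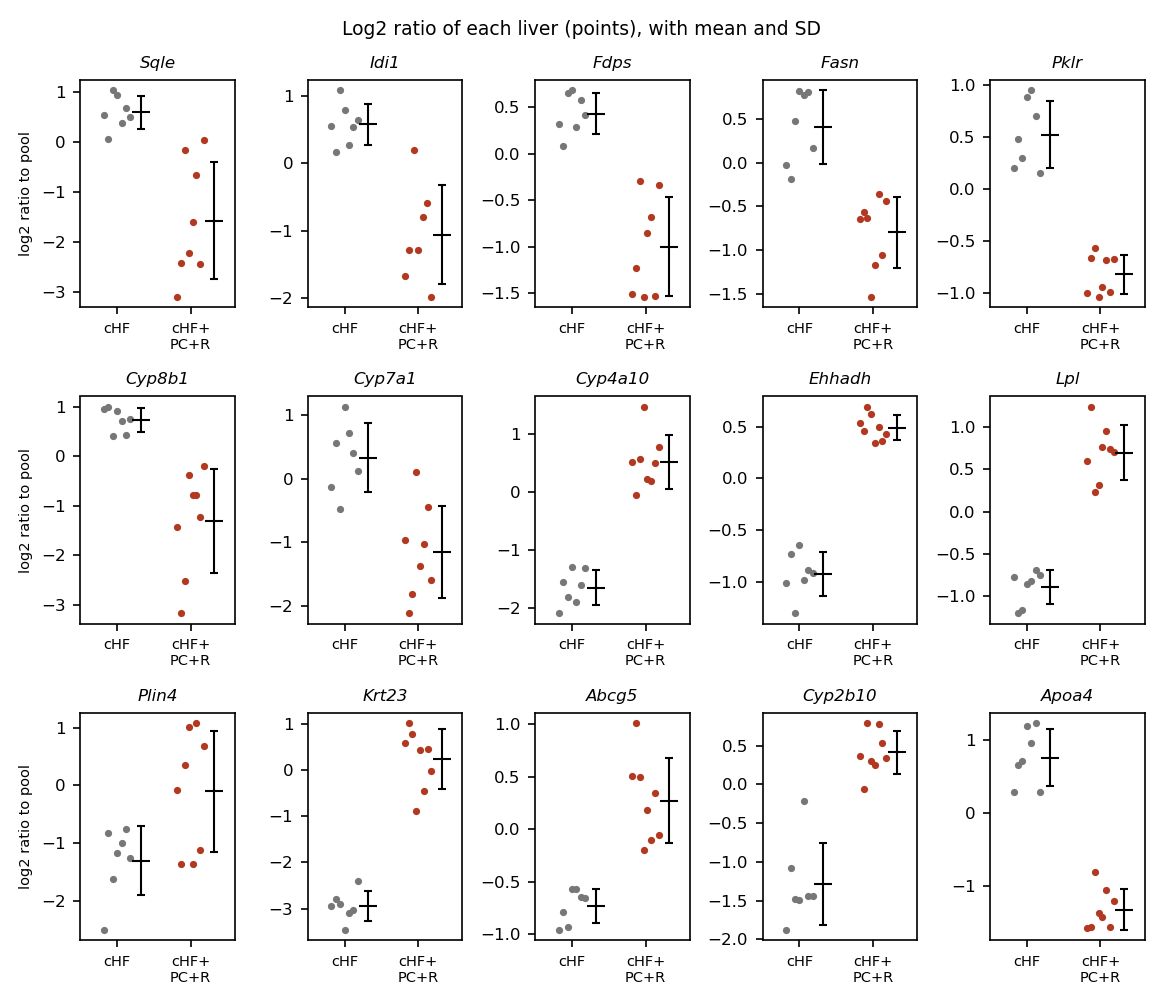
Log2 ratio to the pool (y axis) of each liver for 15 genes in cHF (grey, 7 livers) and cHF+PC+R (red, 8 livers), with the mean and SD of each group in black beside the points. Sqle, Idi1, Fdps, Fasn, Pklr, Cyp8b1, Cyp7a1 and Apoa4 lie lower in cHF+PC+R and the other 7 genes higher, while Plin4 overlaps widely.

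Fatty acids are oxidised at the omega end by microsomal Cyp4a enzymes, shortened in peroxisomes when very long or dicarboxylic, and burned fully in mitochondria. Of 10 measured genes of microsomal omega-oxidation, 8 rose and 1 fell, with a median of 0.96. Cyp4a10 stood at -2.08, -1.60 and -1.29 in cHF and at -0.06, 0.50 and 1.46 in cHF+PC+R. Every cHF+PC+R liver lay more than 1 unit above every cHF liver, and Cyp4a10 rose by 2.16 ± 0.15 (adjusted p = 1.22e-10), a 4.48-fold difference. Cyp4a31 rose by 1.95 and Cyp4a32, with a value in 7 cHF+PC+R livers, by 1.75. Cyp4a14 had a value on 2 of the 7 cHF arrays, at -4.10 and -1.30, and on all 8 cHF+PC+R arrays, where the median was 0.70. Its rise of 3.48 ± 0.54 therefore rests on a control mean of 2 livers. Por, the reductase that feeds electrons to all microsomal cytochromes P450, rose by 1.07 ± 0.19 (adjusted p = 0.000666), without overlap. The member that fell was Cyp4f14, by 0.47, over 4 cHF and 7 cHF+PC+R livers.

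The Cyp4a10 and Cyp4a31 probes match at 54 of 60 bases, which is why their last 30 bases are set side by side, with the 4 differing bases of that stretch in capitals.
Cyp4a10: accttCcctgatggaCgCtctttaccCaaa
Cyp4a31: accttTcctgatggaTgTtctttaccTaaa
With so few differences each probe may bind the transcript of the other gene, so the pair is read as 1 signal. The counts of genes still take them as separate, as does the set that kept its call under all alternatives. The Cyp4a10 probe lies at chr4:115198463-115198522 and the Cyp4a31 probe at chr4:115243923-115243982 of mm9. The Cyp4a32 and Cyp4a14 probes aligned with that of Cyp4a10 at only 22 of 57 and 20 of 51 bases. The direct repeat bound by PPAR and RXR, searched on both strands as AGGNCA, any base and AGGNCA again, was in 0 of 5 promoter windows of omega-oxidation genes, 0 of 15 of peroxisomal genes and 0.381% of all, which says only that those letters are not in these windows. The 5 windows include those of Cyp4a32 and Cyp4f14, but no window was at hand for Cyp4a10, whose promoter was not searched. CCAAT was in 4 of the 5 (80%) and in 10 of the 15 (66.7%). Among the other lists searched, the direct repeat was found only for cytochromes P450 that handle drugs and steroids, in 2 of 23 windows (8.7%). Those were the windows of the closely related Cyp2d9 and Cyp2d10, which held the same match at nearly the same place.

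In peroxisomal beta-oxidation, 9 of 20 genes rose and none fell (0), with a median of 0.20. Ehhadh, a bifunctional enzyme of the cycle, stood at -1.30, -0.91 and -0.64 in cHF and at 0.34, 0.47 and 0.69 in cHF+PC+R. The groups did not overlap, and Ehhadh rose by 1.41 ± 0.11 (adjusted p = 2.2e-09). The thiolases that close the cycle rose as well, Acaa1b by 0.99 over 6 cHF livers and Acaa1a by 0.51, and so did the isomerase Eci2 by 0.38, although Eci2 was at 0.17 with Cy5 alone (adjusted p = 0.467). Acot3, a peroxisomal thioesterase, stood at -1.77, -0.63 and -0.36 in cHF and at -0.34, 0.49 and 1.06 in cHF+PC+R and rose by 1.43 ± 0.31 (adjusted p = 0.00326). Within cHF its values fell apart, from -1.77 to -1.55 in replicates 1, 2 and 3 and from -0.63 to -0.36 in the other 4 livers. Acot1, its cytosolic relative, rose by 1.27 ± 0.15 (adjusted p = 3.61e-06) without overlap.

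Mitochondrial oxidation changed in a smaller share of its members than omega-oxidation or peroxisomal oxidation. Of 17 genes 3 rose at a list median of 0.10, among them the medium-chain dehydrogenase Acadm by 0.51 over 7 livers of each group and the thioesterase Acot2 by 0.56. Cpt1a, which admits fatty acids to mitochondria, was at 0.02 ± 0.08 (adjusted p = 0.93), and its sign turned in the deposited table and with the slide as a block. Of 10 genes of ketogenesis and the fasting response 0 rose and 1 fell, and none fell (0) without any 1 of cHF replicates 1, 2, 5, 6 or 7 or cHF+PC+R replicates 1, 2, 3, 5 or 7. Pdk4, which holds back glucose oxidation, was at -0.03 ± 0.26 (adjusted p = 0.963), and its sign turned with median centring and with the slide as a block. Fgf21, a hepatic fasting hormone, stood at -1.15, -0.54 and 1.19 in cHF and at -3.34, -1.98 and 0.18 in cHF+PC+R and missed the threshold at -1.50 ± 0.54 (adjusted p = 0.0796).

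Of 17 genes of fatty acid uptake and binding 4 rose and 2 fell, and of 16 genes of the lipid droplet and of lipases 3 rose, at medians of 0.12 and 0.04. Over all genes 4.74% rose and 4.76% fell. With 1 array left out the uptake genes gave 2 to 6 rises and 0 to 3 falls, with 2 rises and 0 falls without cHF replicate 6, 0 falls without cHF replicate 3, 6 rises and 0 falls without cHF+PC+R replicate 2, 1 fall without cHF replicates 4, 5 or 7 or cHF+PC+R replicates 4, 5 or 7, and 3 falls without cHF replicates 1 or 2 or cHF+PC+R replicate 6. Lpl, the lipase that frees fatty acids from lipoproteins, stood at -1.20, -0.82 and -0.69 in cHF and at 0.23, 0.73 and 1.24 in cHF+PC+R. The groups were separate, all 7 slides showed the rise, and Lpl rose by 1.59 ± 0.20 (adjusted p = 7.4e-06), while its other probe changed by 1.07. Cd36, a fatty acid translocase, stood at -1.73, -0.72 and -0.29 in cHF and at -0.79, 0.02 and 0.97 in cHF+PC+R and rose by 0.83 ± 0.22 (adjusted p = 0.0167), with overlap. Plin4, a coat protein of lipid droplets, stood at -2.50, -1.17 and -0.75 in cHF and at -1.37, 0.14 and 1.08 in cHF+PC+R. Its cHF+PC+R livers split, with replicates 2, 5 and 7 at -1.12 or below and replicates 3, 4, 6 and 8 at 0.36 or above. Plin4 rose by 1.21 ± 0.36 (adjusted p = 0.0294), but lost the call without cHF replicates 1 or 3 or cHF+PC+R replicates 3, 4, 6 or 8, with an adjusted p of up to 0.0703. The Plin4 call was also lost with the slide as a block (adjusted p = 0.0567), with the replicate block (0.0664) and in a limma fit of the 2 groups alone (0.0652). Pnpla2, the main triglyceride lipase of cells, rose by 0.35 ± 0.10 (adjusted p = 0.0241), with an adjusted p of 0.0516 without cHF+PC+R replicate 3, where 1 rather than 3 of the 16 lipid droplet genes rose. Cidec, which fuses droplets, was at 0.70 ± 0.46 (adjusted p = 0.361), with 0.44 at its other probe, and Fabp4, a fatty acid binding protein of adipocytes, at 0.12 ± 0.29 (adjusted p = 0.847). Pparg, the gene of rosiglitazone's receptor, stood at 0.00, 0.58 and 0.66 in cHF and at -0.99, -0.37 and 0.14 in cHF+PC+R, and fell by 0.78 ± 0.18 (adjusted p = 0.00668).

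Triglyceride synthesis changed in 2 of 13 genes, with 1 that rose and 1 that fell, and without cHF replicate 4 there were 2 that rose and 0 that fell. Over all genes 9.50% passed, with 4.74% that rose and 4.76% that fell. Gpat4, an acyltransferase of the endoplasmic reticulum that starts glycerolipid synthesis, stood at -0.67, -0.44 and -0.36 in cHF and at -0.05, 0.12 and 0.38 in cHF+PC+R, without overlap, and rose by 0.62 ± 0.08 (adjusted p = 6.29e-06). Lpin1, a phosphatidate phosphatase, fell by 0.53 ± 0.15 (adjusted p = 0.0217), with an adjusted p of 0.05 without cHF replicate 4 and of 0.0517 without cHF+PC+R replicate 4. Apolipoproteins and lipoprotein assembly fell in 4 of 14 genes with a median of -0.15. Besides Apoa4, Apoc3, which slows the clearance of triglyceride-rich particles, fell by 0.45 over 6 cHF livers and without overlap, with -0.19 at its other probe. Its partner Apoc2, the cofactor of lipoprotein lipase, fell by 0.31, and Apoa5, which promotes that lipase, by 0.44 over 5 and 6 livers. Of 16 genes that make and remodel phosphatidylcholine, the lipid class of the supplement, 2 rose and 1 fell. Chkb, a choline kinase, rose by 0.35 ± 0.08 (adjusted p = 0.00499), but was at 0.15 with Cy5 alone (adjusted p = 0.707). Pla2g6, a phospholipase, rose by 0.43 ± 0.09 (adjusted p = 0.00369). Mfsd2a, which carries DHA in lysophosphatidylcholine across membranes, stood at 0.21, 0.58 and 1.04 in cHF and at -1.89, -0.46 and 0.09 in cHF+PC+R, and fell by 1.27 ± 0.38 (adjusted p = 0.032). That call was lost without cHF replicates 3, 4, 5 or 6 or cHF+PC+R replicates 2 or 5, with an adjusted p of up to 0.0664.

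Bile acids are made from cholesterol, and Cyp7a1 and Cyp8b1 set how much is made and which acids form. Of 18 genes of their synthesis and transport 3 rose and 4 fell, where 4.74% and 4.76% of all genes did. Cyp8b1, the sterol 12-alpha-hydroxylase, stood at 0.40, 0.76 and 1.00 in cHF and at -3.17, -1.01 and -0.19 in cHF+PC+R. All 8 livers lay below all 7 controls, with replicates 2 and 3 at -3.17 and -2.53 and replicate 8 nearest the controls at -0.19. Cyp8b1 fell by 2.05 ± 0.35 (adjusted p = 0.00038), and its probe lies at chr9:121824595-121824654 of mm9. Cyp7a1, the rate-limiting 7-alpha-hydroxylase, stood at -0.48, 0.40 and 1.13 in cHF and at -2.11, -1.20 and 0.10 in cHF+PC+R, with overlap, and fell by 1.48 ± 0.30 (adjusted p = 0.00185). The hepatic uptake transporters moved in opposite directions, Slco1a1 with a fall of 0.65 and Slco1a4 with a rise of 0.66. Klb, the co-receptor through which intestinal FGF15 represses Cyp7a1, rose by 0.34 ± 0.08 (adjusted p = 0.00643), without overlap. Nr1h4, which encodes the bile acid receptor FXR, fell by 0.35 ± 0.10 (adjusted p = 0.0245), with an adjusted p of 0.0609 without cHF replicate 5 and of 0.0574 without replicate 6. Nr0b2, its target SHP, was at 0.19 ± 0.13 (adjusted p = 0.359).

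Cytochromes P450 that handle drugs and steroids rose in 8 of 23 genes and fell in 2, with a median of 0.36. Cyp2b10, the classical target of the receptor CAR, stood at -1.88, -1.45 and -0.21 in cHF and at -0.06, 0.35 and 0.79 in cHF+PC+R. Replicate 5 at -0.21 was the highest cHF liver, just below the lowest cHF+PC+R liver, and Cyp2b10 rose by 1.70 ± 0.40 (adjusted p = 0.00706). Its relative Cyp2b9, which is more abundant in female than in male liver, rose by 1.56 ± 0.42 (adjusted p = 0.017). Cyp3a11, the classical target of the receptor PXR, stood at -0.43, -0.34 and -0.12 in cHF and at -0.07, 0.59 and 1.39 in cHF+PC+R, with 6 cHF livers measured and no overlap, and rose by 0.93 ± 0.14 (adjusted p = 0.000112). Cyp3a16, Cyp2c55 and Cyp3a13 rose by 0.91, 0.88 and 0.47, each without overlap. Nr1i2, the gene of PXR, rose by 0.60 ± 0.09 (adjusted p = 0.000121) over 7 livers of each group.

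Genes of conjugation and efflux rose in 10 of 28 and fell in 4, where 4.74% and 4.76% of all genes did. Gstt2, a glutathione transferase, stood at -1.19, -0.80 and -0.64 in cHF and at -0.16, 0.17 and 0.80 in cHF+PC+R, without overlap, and rose by 1.04 ± 0.14 (adjusted p = 1.55e-05). Gsta2, of the alpha class, rose by 1.32 ± 0.36 (adjusted p = 0.0182) with overlap. Ces2a, a carboxylesterase, Abcc3, a basolateral exporter of conjugates, and Ugt2b35, a glucuronosyltransferase, rose by 0.74, 0.73 and 0.62, all without overlap, Abcc3 over 6 cHF livers and Ugt2b35 over 7 cHF+PC+R livers. Gstm2 of the mu class fell by 0.81 ± 0.14 (adjusted p = 0.000408), with -0.72 and -0.48 at its other probes. The count that fell dropped from 4 to 2 without cHF replicates 4 or 7 or cHF+PC+R replicate 8, and to 1 without cHF+PC+R replicate 4.

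Glycolysis and gluconeogenesis fell in 7 of 24 genes and rose in none (0), with a median of -0.13, where 4.76% of all genes fell and 4.74% rose. Pklr, the liver pyruvate kinase, stood at 0.16, 0.48 and 0.95 in cHF and at -1.04, -0.81 and -0.57 in cHF+PC+R. The gap between the groups was wider than the cHF+PC+R range, and Pklr fell by 1.34 ± 0.17 (adjusted p = 6.29e-06). Khk, which starts fructose breakdown, fell by 0.69 over 6 cHF+PC+R livers and Gapdh by 0.50, both without overlap and Gapdh with -0.40 to -0.21 at 6 other probes, and Fbp1, an enzyme of gluconeogenesis, by 0.51. With Cy5 alone Fbp1 was at -0.78 and did not pass (adjusted p = 0.202). Pck1, which limits gluconeogenesis, was at 0.62 ± 0.32 (adjusted p = 0.237) over 7 livers of each group. Of 19 genes of insulin and IGF signalling 6 rose and 1 fell, the fall being lost without cHF replicates 2 or 5 or cHF+PC+R replicates 3 or 4. Besides Igfbp2, Irs1, a substrate of the insulin receptor, rose by 0.36 ± 0.09 (adjusted p = 0.0125), with 0.09 at its other probe. Trib3, a pseudokinase that binds Akt, stood at -1.53, -1.02 and -0.69 in cHF and at -0.73, 0.17 and 1.17 in cHF+PC+R and rose by 1.23 ± 0.27 (adjusted p = 0.00386). Amino acid catabolism and the urea cycle rose in 5 of 21 genes and fell in 1, with Oat, an aminotransferase of ornithine, at a rise of 0.65 and Gpt, the alanine aminotransferase, at 0.28. That fall was lost without cHF replicate 2 or cHF+PC+R replicate 4.

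**Figure D3:**
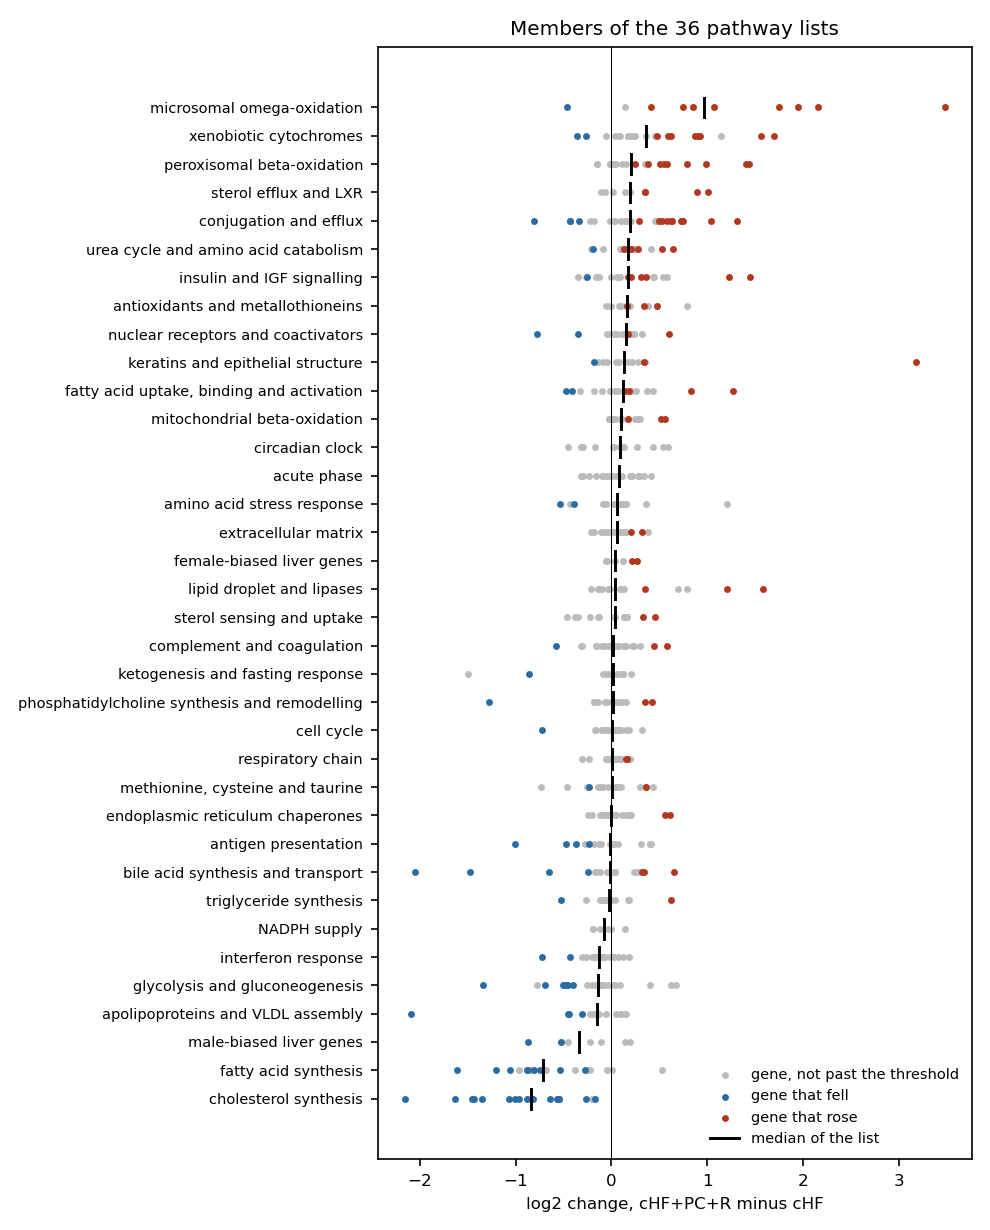
Change of each measured member (points) of 36 pathway lists (rows) between cHF+PC+R and cHF on the log2 scale (x axis), with red for genes that rose, blue for genes that fell, grey for the rest and a black bar at each list's median. Cholesterol synthesis has the lowest median, -0.84, and microsomal omega-oxidation the highest, 0.96.

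Many of these counts were smaller under other scalings. Under median centring and under between-array scaling, in that order, omega-oxidation rose in 4 and 4 of 10 genes, peroxisomal oxidation in 3 and 1 of 20, sterol efflux in 2 and 0 of 9, xenobiotic cytochromes in 1 and 1 of 23 and conjugation in 1 and 0 of 28, where 0 and 1 fell. Mitochondrial oxidation rose in 1 and 1 of 17 genes, lipid droplet genes in 1 and 1 of 16, fatty acid uptake in 1 and 0 of 17 and insulin and IGF signalling in 1 and 0 of 19. Glycolysis fell in 1 and 1 of 24 genes, apolipoproteins in 1 and 0 of 14 bile acid genes in 2 and 0 of 18 and antigen presentation in 1 and 1 of 17. Triglyceride and phosphatidylcholine synthesis, sterol sensing, amino acid catabolism, interferon-stimulated genes, chaperones and male-biased genes had 0 calls under both. With Cy5 alone Apoa5, Klb, Lpin1, Mfsd2a, Nr1h4, Pnpla2 and Slco1a1 also lost their calls, at adjusted p from 0.0519 to 0.106. From the scanner's processed signals Acot2, Gna14, Gprc5b and H2-Q1 changed by 1.35, -1.41, 3.53 and -1.72, over 1.5 times the values given. With the mean of a gene's probes Acly, Apoc3, Gapdh, Irs1 and Slc17a8 changed by -0.63, -0.30, -0.33, 0.22 and -0.99 and kept their calls, as did Apoc3 and Mup3 with Cy5 alone, at -0.28 and -0.30.

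Several other groups had 0 to 4 members past the threshold, where 4.74% of all genes rose and 4.76% fell. The falls in antigen presentation and in male-biased genes are larger shares than that of all genes. Of 20 acute phase genes, 0 passed, with a median of 0.08, and Lcn2 was at -0.30 ± 0.12 (adjusted p = 0.126). The circadian clock had 0 of 14 past the threshold, and Per1, a light- and fasting-responsive clock gene, was at 0.59 ± 0.32 (adjusted p = 0.253). In the cell cycle 1 of 20 fell, Rrm2, a subunit of ribonucleotide reductase, by 0.72. Interferon-stimulated genes fell in 2 of 20, with Oasl1, a relative of the antiviral oligoadenylate synthetases, at -0.72 and Ifi27 at -0.43. Antigen presentation fell in 4 of 17. Of these, H2-Q1, a class Ib molecule, stood at 0.02, 0.64 and 1.22 in cHF and at -0.70, -0.20 and 0.02 in cHF+PC+R, and fell by 1.01 ± 0.15 (adjusted p = 4.67e-05), with groups that touched at 0.02 without crossing. Chaperones of the endoplasmic reticulum rose in 2 of 18, Dnajb9 by 0.61, with 0.28 at its other probe, and Herpud1 by 0.57 over 6 cHF+PC+R livers, the latter with an adjusted p of 0.0557 without cHF+PC+R replicate 1, of 0.064 with the slide as a block and of 0.102 in the deposited table. Male-biased liver genes fell in 2 of 8, Mup3, of the large and closely alike family of major urinary proteins, by 0.53 and Gna14, a G protein subunit, by 0.87.

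Markers of other cell types were read as a check of the tissue. Of 12 hepatocyte markers 3 fell and 0 rose, at a median of 0.03 that turned below 0 with Cy5 alone and in the deposited table. The changes of these 12 ran from -0.59 to 0.25, and those of the 3 that fell, which are not named here, from -0.59 to -0.28. With median centring or with scaling between arrays 0 of them passed. Alb, the albumin gene, was above background on all 15 arrays. None of 16 macrophage (0), 12 endothelial (0), 10 lymphocyte (0), 5 neutrophil (0) or 5 cholangiocyte markers (0) passed, while 1 macrophage marker rose without cHF replicates 2 or 4 or cHF+PC+R replicate 6 and 1 lymphocyte marker rose without cHF+PC+R replicate 5. Of 13 stellate cell markers 1 fell, Lrat, which stores retinol as esters, at -0.34, while Dcn and Pdgfrb did not pass. Of 4 pancreas and gut markers 1 fell, Cela1, a pancreatic elastase, by 0.31. Its adjusted p was 0.0503 without cHF replicate 3, 0.0695 from the scanner's processed signals and 0.169 with Cy5 alone. Amy2a5, Ctrb1 and Lgals4 were at -0.14, -0.06 and 0.27 and did not pass. Of 4 erythroid markers 1 fell, Alas2, of haem synthesis, by 0.47. Hba-a1, Hbb-bt and Slc4a1 were at 0.17, -0.03 and 0.02 and did not pass. Among adipocyte markers, Adipoq and Plin1 were above background on 0 to 1 arrays of either group and Lep on 0. Of the 3 that were measured, Aqp7, Retn and Cfd, 0 passed. Aqp7 was at 0.01 ± 0.08 (adjusted p = 0.957) and Retn at 0.35 ± 0.17 (adjusted p = 0.21), while in cHF+R against cHF 2 of the 3 rose. Cfd, an adipocyte-secreted protease, stood at -4.65, -3.35 and -2.46 in cHF and at -4.96, -2.72 and 2.84 in cHF+PC+R, with cHF+PC+R replicate 6 alone above 0. Its change was 1.51 ± 0.80 (adjusted p = 0.248) over 7 livers of each group, and replicate 6 was also the highest cHF+PC+R liver for Plin4, Cidec, Cd36 and Fabp5. The part of these markers in the other results was not tested.

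The changes against cHF were next set beside those of each supplement alone, with the reservation that all 3 comparisons share the same 7 cHF livers. Against cHF, 765 genes (3.93%) passed in cHF+PC, with 1.82% of all genes higher and 2.11% lower. In cHF+R 607 passed (3.12%), with 2.02% higher and 1.09% lower. Cholesterol synthesis fell in 18 of 19 genes in cHF+PC at a median of -0.75 and in 1 in cHF+R at -0.20. Fatty acid synthesis fell in 11 of 18 genes in cHF+PC and in 1 in cHF+R, where 1 rose. Omega-oxidation rose in 8 of 10 genes in cHF+PC and 4 in cHF+R. Peroxisomal oxidation rose in 3 of 20 in cHF+PC and 5 in cHF+R, against 9 with both, at medians of 0.16, 0.14 and 0.20. Tested directly, 0 of the 20 differed between cHF+PC+R and cHF+PC, where 0.134% of all genes did. In the same way 2 were higher than in cHF+R, where 3.31% of all genes were. Xenobiotic cytochromes rose in 5 of 23 in cHF+PC and fell in 10 in cHF+R. Single genes followed different orders. Ehhadh stood at 1.12 in cHF+PC, 0.97 in cHF+R and 1.41 with both. The corresponding values were 0.53, 1.53 and 1.59 for Lpl, 3.58, 0.78 and 3.18 for Krt23, and -0.97, 2.32 and 1.21 for Plin4.

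**Figure D4:**
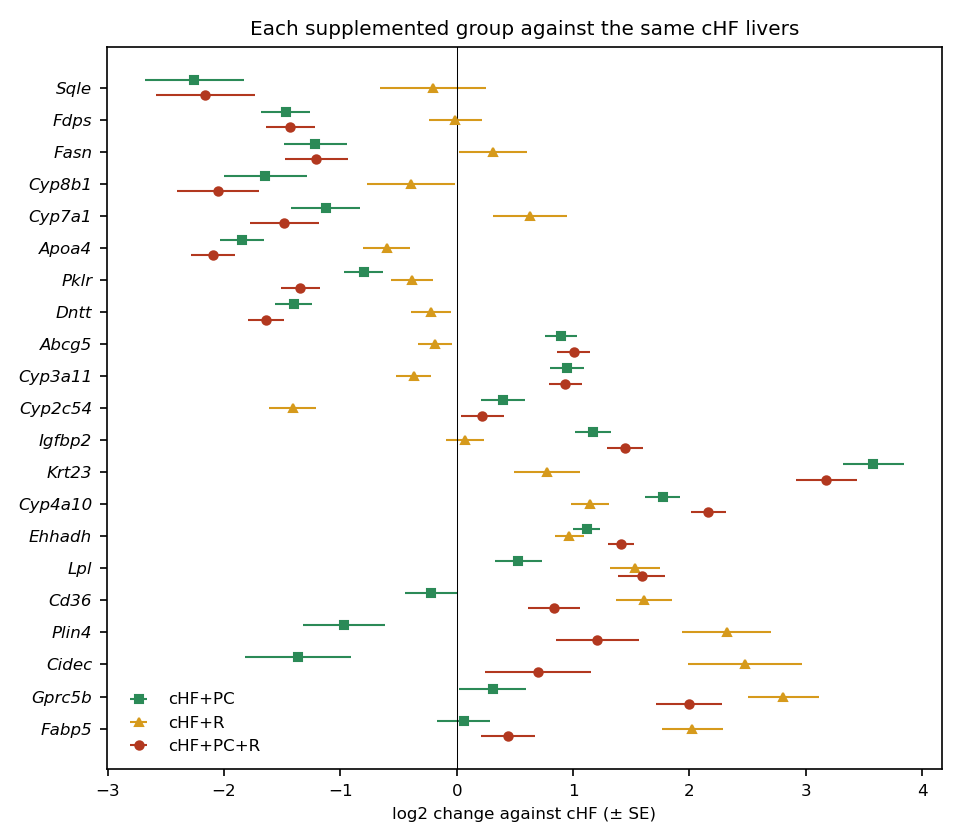
Change against cHF on the log2 scale (x axis) with its standard error for 21 genes in cHF+PC (green squares), cHF+R (yellow triangles) and cHF+PC+R (red circles), all against the same 7 cHF livers. Krt23 reaches 3.58 in cHF+PC and 3.18 in cHF+PC+R but 0.78 in cHF+R, and Fabp5 reaches 2.03 in cHF+R but 0.44 in cHF+PC+R.

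Direct tests gave 26 genes (0.134%) that differed between cHF+PC+R and cHF+PC, 23 higher (0.118%) and 3 lower (0.0154%) in cHF+PC+R. The largest differences were those of Plin4, at 2.18 ± 0.34 (adjusted p = 0.00263), and Cidec, at 2.06 ± 0.44 (adjusted p = 0.0489). Gprc5b followed at 1.69 ± 0.28 (adjusted p = 0.00346), Serpinb1a at 1.49 ± 0.30 (adjusted p = 0.0329) and Anxa2, an annexin, at 1.12 ± 0.24 (adjusted p = 0.0411). Lpl, Cd36 and Gpat4 were also higher, by 1.06, 1.05 and 0.37. The 3 lower genes were Slc13a3, a dicarboxylate carrier, at -0.60, Alas2 at -0.41 and Agmat, an agmatinase homologue, at -0.31. None of the 19 cholesterol synthesis genes (0), the 18 fatty acid synthesis genes (0) or the 23 xenobiotic cytochromes (0) passed in this comparison, in which 0.134% of all genes did. The count of 26 fell to between 13 and 17 without any 1 of cHF+PC replicates 3, 6 or 7 or cHF+PC+R replicates 3, 4, 6 or 8. It rose to 46 and 56 without cHF+PC+R replicates 5 and 2. With each of the 16 arrays of the pair of groups left out in turn, Plin4, Gprc5b, Lpl and Agmat kept their calls throughout. Cidec lost its call in 13 of the 16 cases (adjusted p up to 0.145, without cHF+PC+R replicate 3), Alas2, Cd36, Serpinb1a and Slc13a3 in 11 each, Anxa2 in 10 and Gpat4 in 8. For Cidec the exceptions were cHF+PC+R replicates 2, 5 and 7.

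Against cHF+R, 1389 genes (7.14%) differed, 644 higher (3.31%) and 745 lower (3.83%) in cHF+PC+R. Krt23 was higher by 2.40 ± 0.28 (adjusted p = 2.5e-06), and cytochromes made up the other 4 of the 5 largest rises: Cyp2a21-ps by 1.79 ± 0.32 (adjusted p = 0.000679), Cyp2a4 by 1.70 ± 0.31 (adjusted p = 0.00105), Cyp2c54 by 1.63 ± 0.19 (adjusted p = 3.53e-06) and Cyp2c38 by 1.54 ± 0.21 (adjusted p = 2.75e-05). The Cyp2a4 and Cyp2a21-ps probes share 52 of 56 aligned letters and are read as 1 signal, although counted as separate genes among those rises. Against cHF those cytochromes had not passed, with Cyp2c54 at 0.22 ± 0.19 (adjusted p = 0.501) in cHF+PC+R and -1.41 in cHF+R. Of 23 xenobiotic cytochromes 16 were higher and 1 lower than in cHF+R. Among the 5 largest falls were those of Cfd, at -3.01 ± 0.84 (adjusted p = 0.0267), Cyp7a1, at -2.11 ± 0.31 (adjusted p = 8.21e-05), Sqle, at -1.96 ± 0.44 (adjusted p = 0.00668), and Fam183b, at -1.86 ± 0.33 (adjusted p = 0.000611), while the remaining gene was above background on few cHF+PC+R arrays and is given no value. In cholesterol synthesis 13 of 19 genes were lower than in cHF+R, and in fatty acid synthesis 12 of 18. Without cHF+R replicate 1, 760 genes passed. The Cfd call was lost without cHF+R replicates 1, 3 or 5 or cHF+PC+R replicates 2, 5 or 7 (adjusted p up to 0.0864).

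Whether the combined change differed from the sum of the single changes was tested as an interaction. By limma 0 of 19465 genes passed. An unadjusted p under 0.05 was reached by 1291, where without any interaction a share of about 0.05 of all genes would reach it. With array weights 3 genes passed, and without cHF+PC+R replicate 6 there were 4. The 5 genes with the smallest p all reached an adjusted p of 0.155. Gm6100 and Fabp5l2 had risen by 2.06 and 2.25 in cHF+R but stood at 0.42 and 0.44 with both supplements. The Gm6100 probe shares 54 of 58 aligned letters with that of Fabp5, an epidermal-type fatty acid binding protein. Cyp2c37 had fallen by 1.17 in cHF+R and stood at 0.18 with both. Tlcd5 stood at 0.55 in cHF+R and 0.15 with both, and the remaining gene, above background on few arrays of cHF and cHF+PC+R, is given no value.

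**Figure D5:**
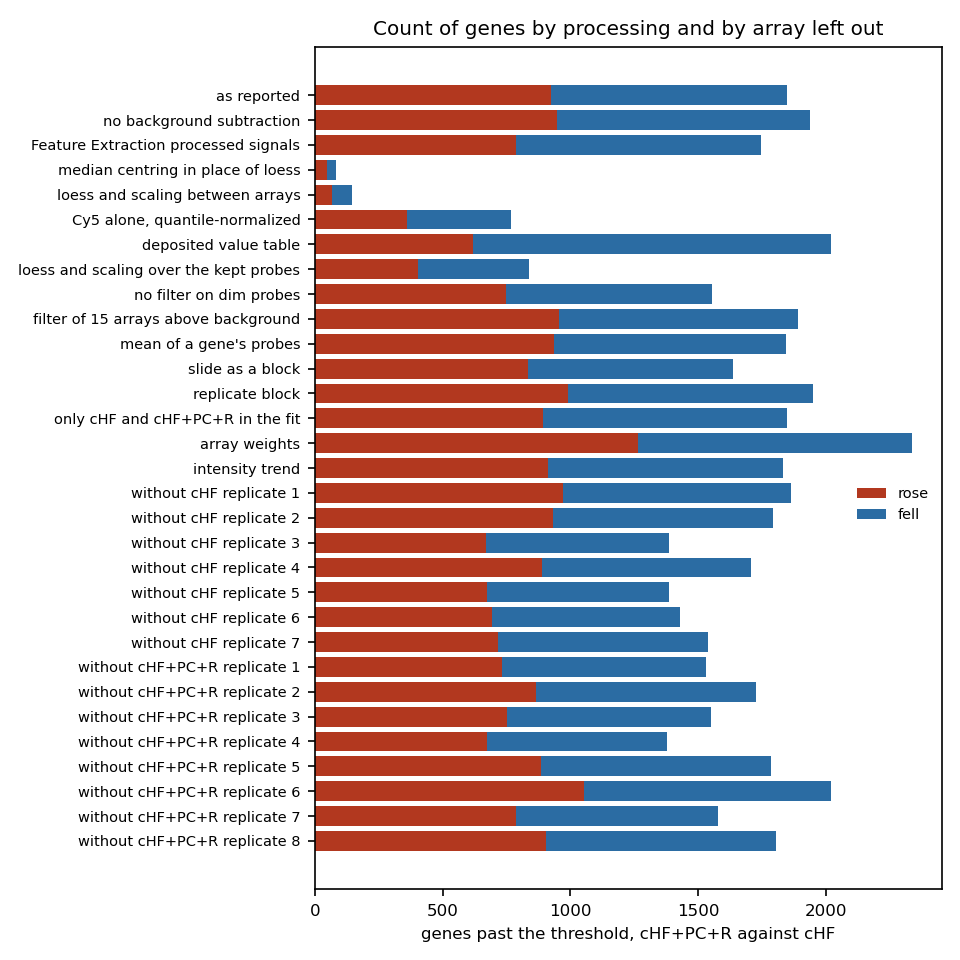
Number of genes past the threshold between cHF+PC+R and cHF (x axis), split into those that rose and those that fell, for each way of processing the arrays and with each of the 15 arrays left out (rows). The reported count is 1850, median centring gives 82, and the counts with 1 array left out run from 1378 to 2019.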

How the data were processed

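Per the file headers, the deposited scanner files hold linear spot intensity in Cy5 and Cy3, extracted by the authors with Agilent Feature Extraction 10.5.1.1 (also per the submitters' processing notes) and not normalized between arrays. Per the labels, the authors left out 1 array of cHF and 1 of cHF+R. The authors' deposited table of log2 values (25806 probes, median 9.03 in every column) served as an alternative; it follows the Cy5 channel, and how it was normalized is not stated in the sources at hand. No dyes were swapped.

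Intensities were corrected with normexp (offset 50) and normalized within arrays by loess (limma 3.58.1, R 4.3.3, data.table version 1.17.8), control and outlier spots left out, and spots of a probe averaged. Of 39429 probes, 23932 were kept, those whose Cy5 signal cleared background on 6 or more arrays and that had values on 20 or more. The probe of highest mean intensity stood for each gene, named through RefSeq of GRCm38.p6 by accession (26412 probes), symbol (3854) or synonym (735); 8428 keep the file's name. Probe positions are those of the files (mm9). Group means of all 29 arrays were fitted with limma (lmFit, eBayes), two-sided. On simulated data with known changes in the cHF+PC+R against cHF design (19465 genes), 92% of log2 changes of 0.3 and 96% of 0.6 were recovered, and 8 unchanged genes were called. How well such known changes are recovered under the other normalizations, and with errors shared across an array, was not tested. The median standard error was 0.0575 here and 0.168 with median centring. Precision is limited by the number of arrays.

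The 46 lists (753 genes, 688 measured) and all members were chosen with earlier results of these data known. The rule for named genes takes the 15 largest rises and 15 largest falls past the threshold with values on at least 5 arrays of each group, from each list the 4 or fewer members of lowest adjusted p, a set of anchor genes, and the 5 largest of each direction in the other contrasts (by p where fewer pass). Some genes under that rule are not reported here. Cyp51, Cyp4f14, Fabp5, Gstm2, Hsd17b7, Lss, Msmo1, Mvk, Nsdhl, Por, Slco1a1, Alb, Adipoq, Plin1, Lep, Dcn and Pdgfrb were named after their values were seen, and related probes were compared then too. Figures were drawn with matplotlib 3.10.9.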

Additional observations from a re-analysis of the deposited data

Results flagged for a closer look

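In 19 of 261 groups of livers, over 131 named genes, 1 liver stood far from the others of its group by Dixon's ratio of gap to range, where chance alone would mark about 1 group in 20. In cHF, replicate 1 was low for Cd36 (-1.73 against a group median of -0.72), for Cyp2a4 (-1.66) and for Cyp2a21-ps, whose probe is nearly the same (-1.68), and high for Igfbp2 (-0.0873). Replicate 3 of cHF was low for Nr1i2 (-1.13 against a median of -0.39) and high for Apoc2 (0.49) and Pnpla2 (0.11). Replicate 7 of cHF was high for Gprc5b (-0.63 against -1.71), and replicate 2 low for Slco1a4 (-0.64).

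In cHF+PC+R, replicate 4 was high for Cyp4a14 (2.43 against a median of 0.70) and Cyp4a32 (1.26 against 0.45) and low for Acaca (-0.82). Replicate 6 was low for Igfbp2 (-0.15 against 0.52) and Lrp1 (-0.51) and high for Lrat (0.49). Replicate 3 was low for Lcn2 (-0.37). Replicate 2 was low for Nr1h4 (-0.84) and Pnpla2 (-0.30), and replicate 7 was high for Pck1 (1.75 against -0.03).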

How the results depend on the processing

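All arrays were read with 15 alternatives beside 1 array left out at a time. For cHF+PC+R against cHF the 1850 genes became 82 with median centring in place of loess, 144 with loess and scaling between arrays, 767 with quantile-normalized Cy5 alone and, in an alternative added after seeing the data, 838 with the scale taken over the kept probes. Median centring raised the median standard error from 0.0575 to 0.168, and the scaling factors ran from 0.657 to 6.19, or 0.700 to 4.09 over the kept probes, with cHF replicate 7 at 2.44 and 1.71. Other settings gave 1555 (no filter on dim probes) to 2338 (array weights), the slide as a block 1638. Leaving out 1 of the 15 arrays gave 1378 (without cHF+PC+R replicate 4) to 2019 (without cHF+PC+R replicate 6). Against cHF+PC the 26 genes became 2 with median centring and 61 in the deposited table, and 13 to 56 with 1 array left out. Against cHF+R the 1389 became 53 with median centring, and 760 to 1977 with 1 array left out. The interaction gave 0 genes, and 0 to 4 with 1 array left out.

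With the replicate number as a block, 1949 genes passed against cHF, 21 against cHF+PC, 1406 against cHF+R and 0 for the interaction. Same-numbered livers correlated at -0.03 to 0.40, and the labels do not say that a number marks a pair, so the block was not used.

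Of the 102 named genes that passed against cHF, 14 kept their direction and call under all 15 alternatives, and 93 kept the call with each of the 15 arrays left out in turn. No alternative turned the direction of a gene that had passed. Of the 46 list medians, 27 kept their sign under all 15 alternatives. The 19 that did not were all within 0.10 of 0, and cholesterol synthesis ran from -0.94 to -0.68 and omega-oxidation from 0.89 to 1.12.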
